A study of Danio rerio with 13 samples.

Results

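The genes cdh2, wnt11, sv2bb, b3gnt5a and arpp21 were expressed in zebrafish hlk T-ALL and were near background in most hMYC ALL. They were chosen by their levels on these same arrays, as high in hlk and near background in most hMYC samples. Their NCBI gene IDs are 30291 for cdh2, 30283 for wnt11, 100006427 for sv2bb, 336526 for b3gnt5a and 564134 for arpp21. Probe sets of the Affymetrix Zebrafish Genome Array belonged to a gene when its symbol was the only one in the array annotation, which gave 7 of the 15502 probe sets that are not controls and 5 of the 8793 genes those probe sets name. The choice used the differences between hMYC and hlk, so these differences are given as values with standard errors and without tests. GFP+ ALL cells had been purified by FACS from the bodies of adult zebrafish, 1 fish per array, with the head region left out by the methods' account of whole-fish sorts, and total RNA was extracted with Trizol. The hMYC fish carried 2 transgenes, rag2:hMYC, which puts human MYC under a rag2 promoter active in immature lymphocytes, and lck:eGFP, a fluorescent marker driven by the promoter of a T cell kinase gene. MYC activity was not boosted with tamoxifen in the study. There were 4 hMYC-1 arrays, 6 hMYC-2 arrays and 3 hlk arrays, the last from hlk;lck:eGFP fish, a separate T-ALL line that carries the same GFP transgene. Clustering of the hMYC samples on these same arrays had made the hMYC-1 and hMYC-2 groups, with hMYC-1 the closer to hlk, so any difference between them describes that split and is no test of it. The paper reports that hMYC fish develop precursor-B (pre-B) ALL, T-ALL or both. It hypothesised that hMYC-1 and hMYC-2 samples might hold differing fractions of B cells beside T-ALL cells. Dim and bright GFP+ cells were sorted together for these arrays. The labels give no sex and no exact age.

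The 5 genes come from unrelated families. Cdh2 is N-cadherin, which joins cells through calcium-dependent binding to the same protein on a neighbour and is linked inside the cell to catenins. Wnt11 is a secreted ligand best known in zebrafish for the planar polarity branch of Wnt signalling, which steers cell movement in the embryo without beta-catenin. The gene measured here is the one formerly called wnt11r, and wnt11f2, the silberblick gene, was not analysed. Sv2bb belongs to the synaptic vesicle glycoprotein 2 family, membrane proteins of secretory vesicles. B3gnt5a encodes a Golgi enzyme that adds N-acetylglucosamine to lactosylceramide and so starts the lacto and neolacto glycolipids. Arpp21 is a cyclic AMP-regulated phosphoprotein with an R3H domain that binds RNA, and in mouse it is known from brain and, as TARPP, from immature thymocytes.

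Values are log2 probe set levels that the authors normalised together with justRMA, so a difference of 1 is a doubling of signal. No normal lymphocytes were on these arrays, so a gene called lower or higher in hMYC is so relative to hlk alone. The 17 tag controls, probe sets for sequences the fish lack, ranged between 2.69 and 5.68, and 5.68 was taken as the limit of background. The array medians lay between 4.98 and 5.10. Of 12 measured B lineage genes 10 were called higher in hMYC-1 and 11 in hMYC-2 than in hlk, and none lower in either. Of 18 measured T lineage genes 4 were called lower and 2 higher in hMYC-1, and 6 lower and 1 higher in hMYC-2 (limma, adjusted p under 0.05). The gene called higher in both was lmo2, which the paper reports as higher in B than in T cells. Both lineage lists were chosen with earlier results of these data known, so these counts are no independent evidence of lineage. Over all 8793 named genes, 10.6% were called higher and 10.3% lower in hMYC-1, and 12.4% higher and 15.2% lower in hMYC-2. Higher calls made up 48.7% of the probe sets called in hMYC-1 and 44.6% in hMYC-2, and 74.9% and 66.2% when each array was shifted to an equal mean of 3 housekeeping genes, a scaling that moved the median difference of all probe sets from -0.03 to 0.19 in hMYC-1 and from -0.07 to 0.07 in hMYC-2. Defining T cell genes such as lck and cd4 had no probe set used here. The difference between the 3' and 5' probe sets of GAPDH was 4.69 in hlk replicate 1 and 2.49 in hMYC-1 replicate 3, against 1.09 to 1.92 in the other arrays. Of 19 skin and epithelium markers 6 were above background in hlk replicate 1 and 0 to 2 in the other arrays, and their mean level was 4.81 in hlk replicate 1 and at most 4.20 elsewhere. The part of RNA quality and of other cells in the levels below was not tested. In sorted bulk samples, fewer cells of a type and less RNA per cell cannot be told apart.

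**Figure D1:**
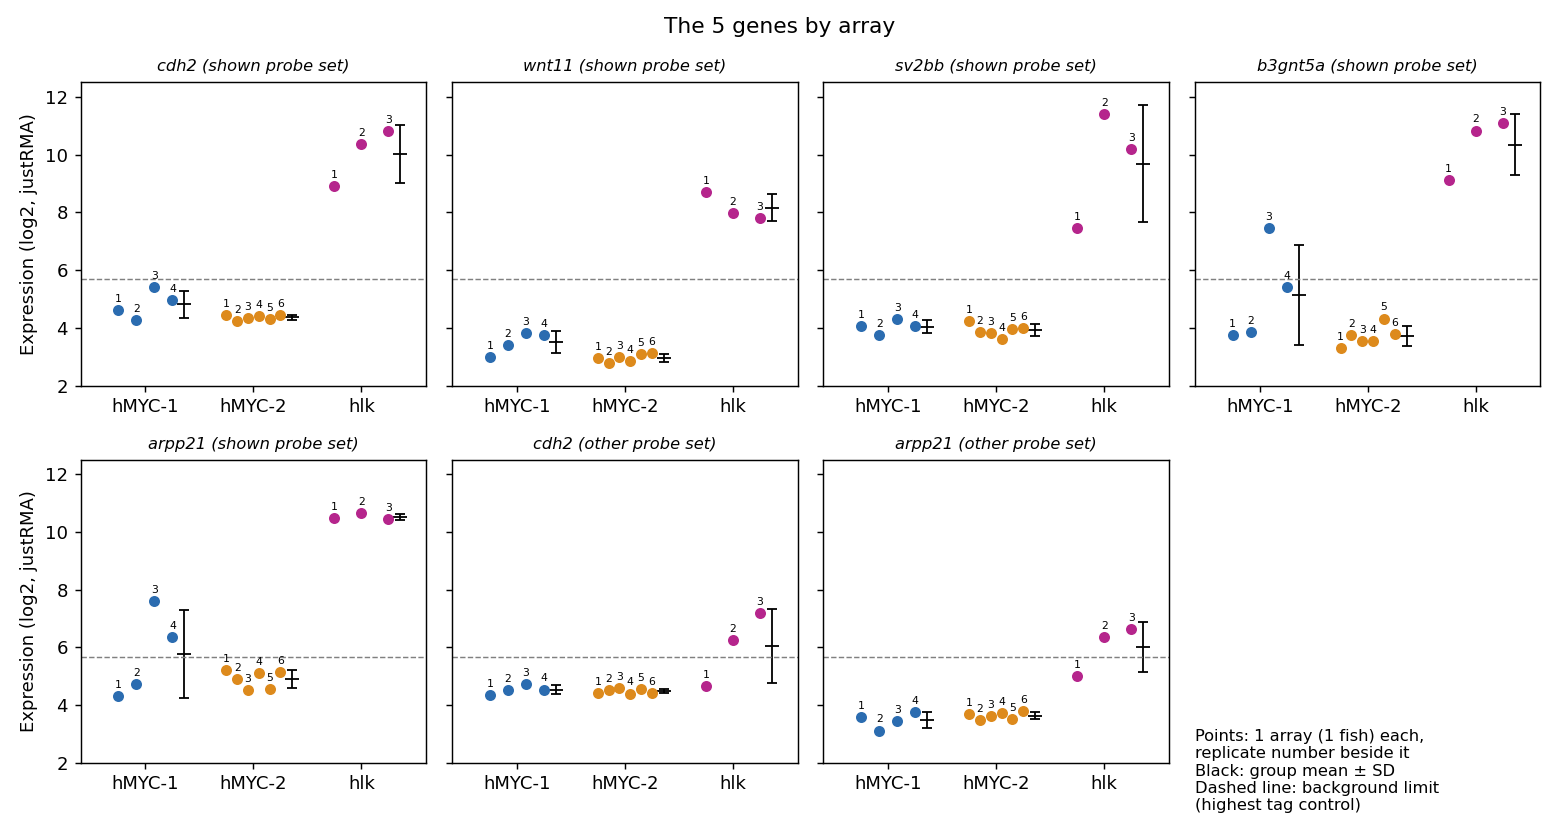
Level of each of the 7 probe sets on each array (y axis, log2 after justRMA), with 1 point per fish, the replicate number above it and the group mean ± SD in black, for hMYC-1 (n = 4), hMYC-2 (n = 6) and hlk (n = 3). The dashed line is the background limit of 5.68. All hMYC arrays lie below the line for cdh2, wnt11 and sv2bb, whereas hMYC-1 replicate 3 crosses it for b3gnt5a and for the brighter arpp21 probe set, and replicate 4 for that arpp21 probe set alone.

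N-cadherin was within background in all 10 hMYC arrays and far above it in all 3 hlk arrays. The brighter cdh2 probe set read 4.61, 4.28, 5.40 and 4.95 in hMYC-1 replicates 1 to 4, between 4.23 and 4.45 with a median of 4.39 across the 6 hMYC-2 arrays, and 8.90, 10.37 and 10.81 across hlk replicates 1 to 3. No hMYC array came within 3.5 log2 units of the lowest hlk array. The group means were 4.81 ± 0.48 in hMYC-1, 4.37 ± 0.09 in hMYC-2 and 10.03 ± 1.0 in hlk (SD, n = 4, 6 and 3). The difference was -5.22 (SE 0.36) for hMYC-1 minus hlk and -5.66 (SE 0.34) for hMYC-2 minus hlk. Since hMYC signal lay within background, the data bound the difference at 4.35 log2 units or more, at least 20.3-fold lower in both hMYC groups. The dimmer cdh2 probe set did not separate the groups. It read between 4.36 and 4.73 in the 10 hMYC arrays and 4.67, 6.25 and 7.20 in the hlk arrays, so that hlk replicate 1 fell among the hMYC values. Its differences were -1.51 (SE 0.40) for hMYC-1 and -1.55 (SE 0.37) for hMYC-2. Since hlk replicate 1 was itself within background, the size of these differences is not resolved. The measured differences were -2.19 and -2.24 without hlk replicate 1, and -0.93 and -0.97 without hlk replicate 3.

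The ligand gene wnt11 was likewise on in hlk and at background in all hMYC arrays. Its probe set read 2.99, 3.41, 3.83 and 3.75 across hMYC-1, between 2.79 and 3.12 across hMYC-2, and 8.70, 7.97 and 7.81 across hlk. Every hMYC value lay in the lower part of the range of the tag controls, and the lowest hlk array stood 3.98 above the highest hMYC array. Means were 3.5 ± 0.38 in hMYC-1, 2.96 ± 0.13 in hMYC-2 and 8.16 ± 0.47 in hlk. The measured differences were -4.67 (SE 0.22) for hMYC-1 and -5.20 (SE 0.21) for hMYC-2. With the hMYC side at the background limit, wnt11 was at least 5.58-fold lower in each hMYC group than in hlk. Unlike the other genes, wnt11 was higher in hlk replicate 1 than in the other hlk arrays, by 0.81.

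The vesicle protein gene sv2bb varied most among the hlk fish. It read 4.06, 3.76, 4.29 and 4.05 in hMYC-1, between 3.61 and 4.24 in hMYC-2, and 7.45, 11.39 and 10.20 in hlk. The hlk arrays thus spanned almost 4 log2 units, while the 10 hMYC arrays spanned less than 1. Means were 4.04 ± 0.22 in hMYC-1, 3.91 ± 0.21 in hMYC-2 and 9.68 ± 2.02 in hlk. The differences were -5.64 (SE 0.63) for hMYC-1 and -5.77 (SE 0.59) for hMYC-2, at least 16.0-fold lower in each. Replicate 1 of hlk was 3.34 below the mean of the other hlk arrays, and without it the differences were -6.76 and -6.89. Since both hMYC groups lay within background for cdh2, wnt11 and sv2bb, no order between them can be read for these genes.

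The glycolipid enzyme gene b3gnt5a was within background in every hMYC-2 array but not in every hMYC-1 array. Its probe set read 3.76, 3.86, 7.46 and 5.42 in hMYC-1 replicates 1 to 4, between 3.29 and 4.32 with a median of 3.65 in hMYC-2, and 9.13, 10.83 and 11.08 in hlk. Only hMYC-1 replicate 3 exceeded the background limit among the hMYC arrays, and replicate 4 lay just under it. Means were 5.12 ± 1.73 in hMYC-1, 3.70 ± 0.35 in hMYC-2 and 10.35 ± 1.06 in hlk. The difference was -5.22 (SE 0.75) for hMYC-1 and -6.64 (SE 0.69) for hMYC-2, hMYC-2 being at least 25.4-fold below hlk. Without hMYC-1 replicate 3 the measured difference for hMYC-1 was -6.0, with every remaining array within background.

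On its brighter probe set arpp21 was the most even of the 5 genes across hlk fish, with an SD of 0.10, whereas its dimmer one had an SD of 0.87. The brighter probe set read 4.31, 4.73, 7.61 and 6.37 in hMYC-1, between 4.51 and 5.22 with a median of 5.0 in hMYC-2, and 10.48, 10.64 and 10.45 in hlk. Of the hMYC-1 arrays 2, replicates 3 and 4, were above background, and replicates 1 and 2, at 4.31 and 4.73, were not. Means were 5.76 ± 1.52 in hMYC-1, 4.90 ± 0.31 in hMYC-2 and 10.52 ± 0.10 in hlk. The difference was -4.77 (SE 0.59) for hMYC-1 and -5.62 (SE 0.55) for hMYC-2, at least 28.7-fold lower in hMYC-2. Without hMYC-1 replicate 3 the difference for hMYC-1 was -5.39. The dimmer arpp21 probe set read between 3.12 and 3.77 in hMYC-1, between 3.49 and 3.78 in hMYC-2, and 5.02, 6.37 and 6.64 in hlk. On it hMYC-1 replicates 3 and 4, at 3.45 and 3.77, were within background and inside the range of the other hMYC arrays, and hlk replicate 1 itself was within background. The measured differences on this probe set were -2.53 (SE 0.30) for hMYC-1 and -2.37 (SE 0.27) for hMYC-2, and their size is not resolved.

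On the brighter probe sets the ranges of hMYC-1 and hMYC-2 overlapped in each of the 5 genes, and those of hMYC and hlk in none. Lack of overlap with hlk on the lower side was met by 7.97% of all probe sets over the 10 hMYC arrays. Few transcripts had this on and off pattern. Every hlk array was above background and every hMYC array within it for 76 probe sets, or 42 genes, and allowing 2 hMYC arrays to be above it gave 86 genes, 0.978% of those named.

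The hMYC-1 arrays did not behave alike. On the brighter probe sets replicate 3 was above background for b3gnt5a and arpp21, replicate 4 for arpp21 alone, and replicates 1 and 2 for none of the 5 genes. In replicate 3 b3gnt5a stood 1.78 above the background limit and 2.89 below the hlk mean, and arpp21 1.93 above the limit and 2.91 below the hlk mean. On a linear scale, background signal included, these were 13.5% of the hlk level for b3gnt5a and 13.3% for arpp21. In replicate 4 arpp21 stood 0.69 above the limit, at 5.62% of the hlk level. The hMYC-2 values of both genes were all within background, so the distance of these arrays from hMYC-2 is known only as at least their distance from the limit.

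Replicate 3 also stood out among the other 81 genes with the pattern, which by its definition are above background in at most 2 hMYC arrays. Of these genes 26 (32.1%) were above background in hMYC-1 replicate 3, and 3, 3 and 4 in replicates 1, 2 and 4. In the hMYC-2 arrays 1 to 6 of the 81 were. Replicate 3 was the highest of the 10 hMYC arrays for 17.8% of all 8793 named genes. Among the 86 genes with the pattern, the 5 included, it was for 59.3%. All hMYC arrays were within background for 42 of the 86, as every array was for 39.9% of all named genes. In those genes the highest hMYC array is only the highest background reading. Levels in replicate 3 for the 26 genes ran from 5.72 for polm, little above the limit, to 8.43 for trac. This array also had the largest difference between GAPDH probe sets among the hMYC arrays, 2.49. The part of RNA quality in its count was not tested. The 26 genes lay between 8.44% and 125% of their hlk level in replicate 3 on the linear scale, with a median of 40%. The 13.5% of b3gnt5a and 13.3% of arpp21 cannot be ranked against these. Each gene counted exceeds the limit, so its lowest possible percentage is set by its hlk level. That level was 5.69 to 5.80 for dab2ipb, among the 26, against means of 10.35 for b3gnt5a and 10.52 for arpp21.

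**Figure D2:**
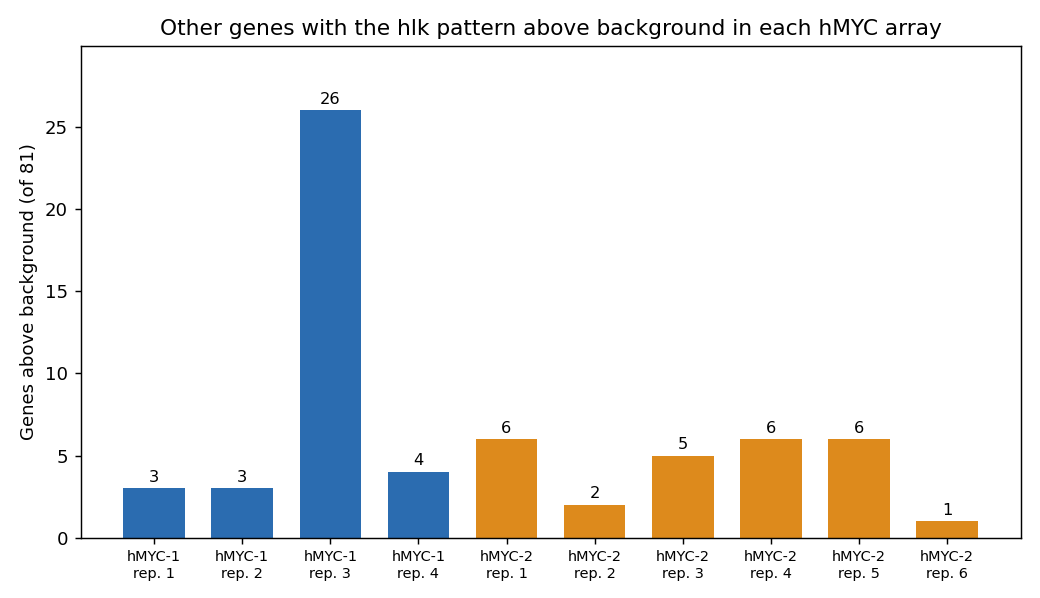
Number of the other 81 genes with the pattern (y axis) that were above background in each of the 4 hMYC-1 and 6 hMYC-2 arrays (x axis, 1 bar per array, coloured by group). Replicate 3 of hMYC-1 has 26, and the other arrays have 1 to 6.

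Of the 18 T lineage genes 8 were above background in at least 1 hMYC array, and they did not follow 1 order among the hMYC arrays. Not all of the 8 are particular to T cells. By other assays the paper reports similar rag2 in pre-B and T-ALL, and higher lmo2 in B than in T cells. For rag1 it reports much higher levels in T-ALL than in pre-B ALL. For runx3, ets1 and the recombinase gene rag1, 3 of the 8, hMYC-1 replicates 3 and 4 were above the other 8 hMYC arrays. Runx3, a T cell transcription factor gene, read 8.92, 8.74, 10.32 and 9.63 in hMYC-1 replicates 1 to 4, between 7.29 and 8.97 in hMYC-2, and 11.76, 11.90 and 12.04 in hlk. It was lower than in hlk by 2.5 in hMYC-1 (limma, adjusted p = 0.000719) and by 3.56 in hMYC-2 (limma, adjusted p = 1.69e-05). Ets1, a transcription factor of lymphocytes, read 6.19, 6.25, 7.18 and 6.66 in hMYC-1, between 6.0 and 6.58 in hMYC-2, and 9.61, 10.12 and 9.96 in hlk. Its differences were -3.33 (limma, adjusted p = 4.07e-07) and -3.61 (limma, adjusted p = 7.48e-08). Rag1 read 6.22, 6.91, 7.79 and 8.07 in hMYC-1, between 4.64 and 6.25 in hMYC-2, and 5.5, 11.16 and 10.53 in hlk, where replicate 1 was within background. The other recombinase gene, rag2, read 7.93, 7.78, 7.08 and 7.86 in hMYC-1, with replicate 3 the lowest. Ikzf1, which encodes the lymphoid transcription factor Ikaros, read 9.60, 9.94, 9.30 and 8.97 in hMYC-1, with replicates 3 and 4 the lowest.

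Gata3, needed for T cell commitment, was within background in all hMYC arrays, at 3.45 to 5.12 in hMYC-1 and 3.32 to 3.94 in hMYC-2, and read 9.08, 6.22 and 8.0 in hlk. It was lower by at least 2.09 in each hMYC group (limma, adjusted p = 0.000367 for hMYC-1 and 4.52e-05 for hMYC-2). Lmo2, a transcription cofactor of blood progenitors, went the other way, at 5.98 to 6.43 in hMYC-1, 4.93 to 6.03 in hMYC-2, and 3.70, 3.58 and 3.32 in hlk. Both groups were called higher than hlk (limma, adjusted p = 1.03e-05 and 3.64e-05), hMYC-1 being at least 0.50 above it. Tox, a nuclear factor of developing T cells, was called higher in hMYC-1 (limma, adjusted p = 0.0449), with hlk within background at 5.10 to 5.55 and hMYC-1 at 5.55 to 6.30. This call was lost without hMYC-1 replicate 3 or 4 (limma, adjusted p = 0.0919 and 0.0893), without hlk replicate 2 or 3 (limma, adjusted p = 0.138 and 0.125) and without any hMYC-2 array but replicate 5.

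The T cell receptor alpha constant gene trac, singled out after its values were seen, read 4.04, 4.92, 8.43 and 5.57 in hMYC-1, between 4.25 and 6.39 in hMYC-2, and 9.89, 7.33 and 9.93 in hlk. Replicate 3 of hMYC-1 was thus inside the hlk range for trac, as it was for none of the 5 genes on their brighter probe sets. On the dimmer cdh2 probe set it read 4.73 beside 4.67 in hlk replicate 1, both within background. The mean of the 18 T lineage genes was 5.03, 5.20, 5.54 and 5.31 in the hMYC-1 arrays, 4.73 to 5.01 in hMYC-2 and 5.67 to 6.08 in hlk. That of the 12 B lineage genes was 9.32, 9.09, 8.27 and 8.59 in hMYC-1, 9.02 to 9.36 in hMYC-2 and 5.32 to 5.38 in hlk. Replicates 3 and 4 of hMYC-1, the arrays with arpp21 above background on its brighter probe set, had the highest T lineage means and the lowest B lineage means of the hMYC arrays. The T lineage mean includes 9 genes within background on every array. The part of these lineage levels in those of the 5 genes was not tested. The difference between GAPDH probe sets in hMYC-1 replicate 4 was 1.5, inside the range of the other arrays, against 2.49 in replicate 3.

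**Figure D3:**
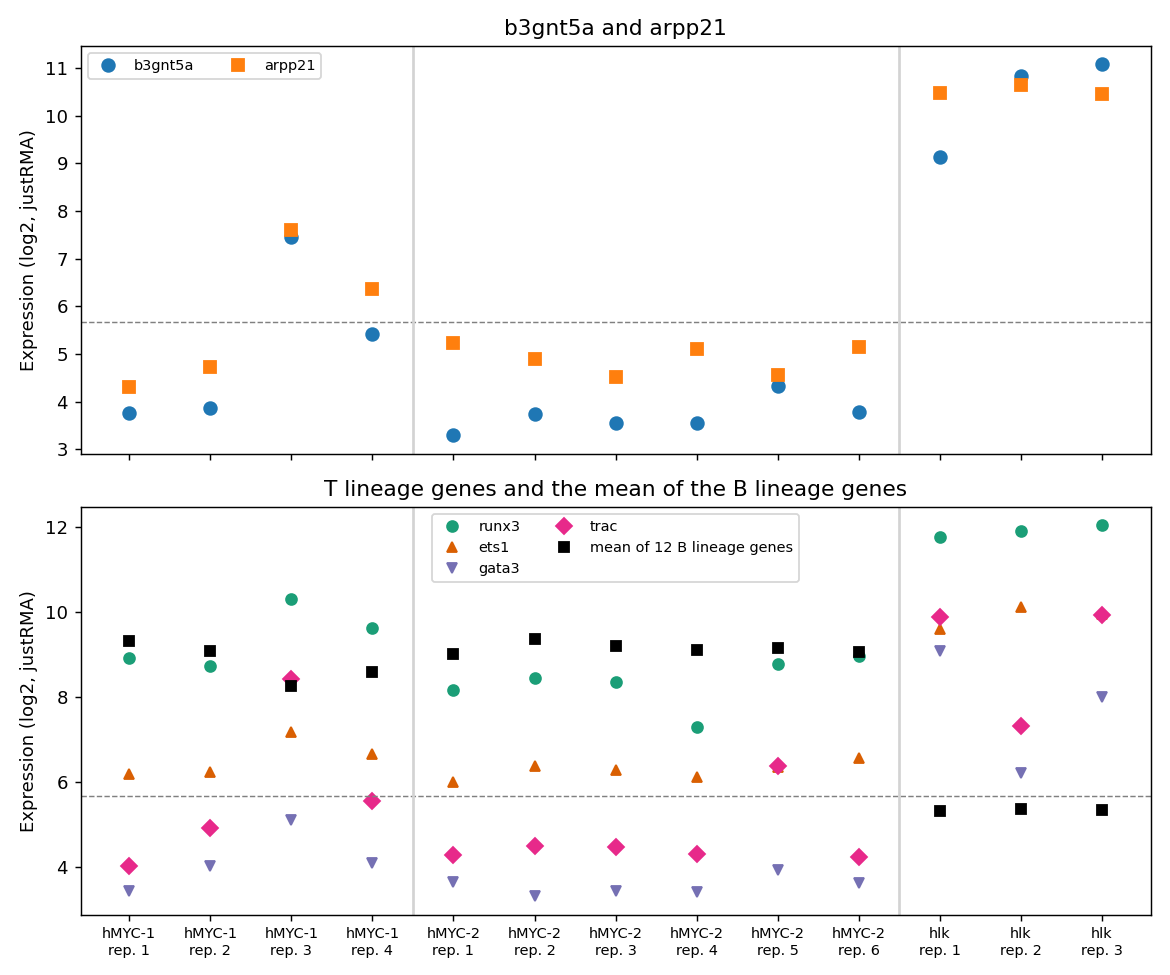
Level on each of the 13 arrays (x axis; y axis, log2 after justRMA) of b3gnt5a and arpp21 in the upper panel, and of runx3, ets1, gata3, trac and the mean of 12 B lineage genes in the lower panel, with 1 point per array and the background limit dashed. In hMYC-1 replicate 3, b3gnt5a, arpp21, runx3 and trac are at 7.46, 7.61, 10.32 and 8.43 and the B lineage mean is at 8.27, the lowest of the hMYC arrays.

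Most measured markers of several other cell types were within background. Of 20 measured neuron markers 18 were within background on every array, as were all 13 fibroblast and mesenchyme markers, 4 of 4 endothelium markers, 14 of 17 muscle markers and 4 of 5 thymus stroma markers. Of all named genes 39.9% were. The mean of the neuron markers was 3.82 to 3.97 in hMYC-1, 3.74 to 3.85 in hMYC-2 and 3.95 to 4.09 in hlk. That of the endothelium markers was 3.73 to 3.84, 3.81 to 3.97 and 3.94 to 4.26 in the same order. For 11 neutrophil and macrophage markers it was 4.72 to 4.78, 4.59 to 4.73 and 4.76 to 5.14. The part of such cells in the levels of the 5 genes was not tested.

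The mean of the 5 thymus stroma markers was 4.12, 4.47, 4.83 and 4.79 in hMYC-1 replicates 1 to 4, 3.79 to 4.63 in hMYC-2 and 3.63 to 3.89 in hlk, so that it too was highest in hMYC-1 replicates 3 and 4. Of the 5 markers 4 were within background on every array, and their readings enter this mean. The chemokine gene cxcl12b, singled out after its values were seen, was the marker above background. It read 4.81, 7.30, 7.5 and 7.55 in hMYC-1, between 4.33 and 7.58 in hMYC-2, and 3.01, 2.96 and 3.06 in hlk. It was the 1 marker of this list called higher, in both groups (limma, adjusted p under 0.05). Its level in hMYC-1 replicate 2, which had none of the 5 genes above background, was close to that in replicates 3 and 4. The part of such cells in the levels of the 5 genes was not tested.

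The partners and relatives of the 5 genes were then counted from lists that span cadherins and catenins, the Wnt pathway, synaptic vesicle genes, glycolipid enzymes, and cAMP-regulated phosphoprotein and R3H genes. Together they held 156 measured genes besides the 5, of which 14 were called lower and 13 higher in hMYC-1 than in hlk (limma, adjusted p under 0.05 over all probe sets). These are 8.97% and 8.33%, beside 10.3% and 10.6% of all named genes. In hMYC-2, 22 were called lower and 16 higher, 14.1% and 10.3%, beside 15.2% and 12.4% of all named genes. Of those called, 4 of the lower and 5 of the higher in hMYC-1, and 8 of the lower and 6 of the higher in hMYC-2, were within background on every array. With the replicate number as a block the 22 became 11, and without hlk replicate 2 the 16 became 10. The 156 genes had a median difference of -0.04 for hMYC-1 and -0.10 for hMYC-2, against -0.03 and -0.08 over all named genes. None was called between hMYC-1 and hMYC-2, where 0.535% of all probe sets were. No other gene of these lists differed from hlk in measured signal by as much as any of the 5 on its brighter probe set. The 5 had been chosen for this difference, so their distance from the lists follows from the choice.

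No other measured cadherin had the pattern of cdh2. Of the 7, cdh1, cdh11, cdh13, cdh15, cdh17 and cdh18a were within background on every array. Cdh4, R-cadherin, read 5.94, 6.59, 7.68 and 5.97 in hMYC-1, between 5.3 and 7.0 in hMYC-2, and 4.17, 8.61 and 8.55 in hlk. Its hlk values straddled those of hMYC, and it differed by -0.56 (SE 0.89) for hMYC-1 and -1.2 (SE 0.82) for hMYC-2 (limma, adjusted p = 0.726 and 0.316). Without hlk replicate 1 both passed (limma, adjusted p = 0.0121 and 0.00128). Catenins tie cadherins to the cytoskeleton or carry Wnt signals. Among them ctnnb2, a beta-catenin, was lower by 2.27 in hMYC-1 (SE 0.16, limma, adjusted p = 5.5e-07) and by 1.91 in hMYC-2 (SE 0.14, limma, adjusted p = 9.82e-07). It read between 7.06 and 7.77 in hMYC-1, between 7.61 and 7.99 in hMYC-2, and 9.63, 9.65 and 9.87 in hlk. The other beta-catenin gene, ctnnb1, averaged 8.78 ± 0.13 in hMYC-1, 8.69 ± 0.10 in hMYC-2 and 8.93 ± 0.20 in hlk and was not called (limma, adjusted p = 0.42 and 0.108). Jupa, the plakoglobin that binds cadherins of desmosomes and adherens junctions, was higher by 2.64 (SE 0.34, limma, adjusted p = 0.000132) and 2.78 (SE 0.31, limma, adjusted p = 3.52e-05). It read 7.24 to 8.23 in hMYC-1, 7.44 to 8.19 in hMYC-2, and 4.57, 4.69 and 6.05 in hlk. Only replicate 3 of hlk was above background for it, so the size of these differences is not resolved.

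Wnt11 was alone among the measured Wnt ligands in leaving background. The list held 10 others, counting the Wnt agonist gene rspo1, and all were within background on every array, as were 46 of the 60 genes of the pathway list. Of those 60, 3 were called lower and 3 higher in hMYC-1, and 6 lower and 4 higher in hMYC-2. In the planar polarity branch the kinase gene rock2a was lower by 0.93 in hMYC-1 (limma, adjusted p = 0.000585) and by 0.76 in hMYC-2 (limma, adjusted p = 0.00114). The GTPase gene rac1a read 6.12 to 6.95 in hMYC-1, 6.16 to 6.81 in hMYC-2, and 6.11, 3.81 and 3.88 in hlk. It was higher by 1.94 (limma, adjusted p = 0.00742) and 1.92 (limma, adjusted p = 0.00407). Replicates 2 and 3 of hlk were within background for rac1a, so the size of these differences is not resolved. Its hMYC-1 call was lost by the methods' shrinkage t (shrinkage t, adjusted p = 0.132) and with the 2 groups fitted alone (limma, adjusted p = 0.0693). In the beta-catenin branch axin1, a scaffold of the complex that degrades beta-catenin, was lower by 1.05 in hMYC-2 (limma, adjusted p = 0.000571). In hMYC-1 it was lower by 0.73 (limma, adjusted p = 0.0133), a call lost without hlk replicate 2 (limma, adjusted p = 0.0586). That call was also lost with the replicate number as a block (limma, adjusted p = 0.0934). Shifting the arrays to the housekeeping genes lost it too (limma, adjusted p = 0.162), as did the methods' shrinkage t (shrinkage t, adjusted p = 0.101).

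None of the sv2 relatives on the list had a usable probe set. Of the 30 vesicle genes measured, 3 were called lower and 4 higher in hMYC-1, and 7 lower and 3 higher in hMYC-2. The lowest p was that of syngr2b, a synaptogyrin of vesicle membranes outside neurons, which read 4.32 to 5.13 in hMYC-1, 4.47 to 4.80 in hMYC-2, and 7.34, 6.47 and 6.88 in hlk. It was within background in every hMYC array and fell by at least 1.22 in each group (limma, adjusted p = 6.76e-06 for hMYC-1 and 2.3e-06 for hMYC-2). The syntaxin partner gene stxbp3 was higher by 0.54 (limma, adjusted p = 0.00972) and 0.52 (limma, adjusted p = 0.00638).

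Of 5 measured b3gnt relatives of b3gnt5a, 3 were within background on every array and not called against hlk, namely b3gnt7, b3gnt2a and b3gnt3.1. The others, b3gnt7l and b3gnt3.4, differed from hlk in opposite directions in measured signal. B3gnt7l, of the same enzyme family, read 8.15, 8.14, 6.97 and 7.69 in hMYC-1, between 8.32 and 9.03 in hMYC-2, and 4.70, 6.85 and 6.13 in hlk. It was higher by 1.84 in hMYC-1 (limma, adjusted p = 0.00785) and by 2.70 in hMYC-2 (limma, adjusted p = 0.000253), and its lowest hMYC value was that of hMYC-1 replicate 3. B3gnt3.4 read 3.75, 3.57, 6.11 and 5.55 in hMYC-1, between 3.94 and 5.75 in hMYC-2, and 4.87, 7.38 and 8.23 in hlk. Its difference was -2.08 (SE 0.80; limma, adjusted p = 0.0946) for hMYC-1. For hMYC-2 it was -2.26 (SE 0.74; limma, adjusted p = 0.0416), a call lost without either hlk replicate 2 or 3 (limma, adjusted p = 0.13 and 0.178) and without any hMYC-2 array but replicate 5. Without hlk replicate 1 the hMYC-1 difference passed (limma, adjusted p = 0.00931). Of the 24 glycolipid genes measured, 3 were called lower and 4 higher in hMYC-1, and 3 lower and 6 higher in hMYC-2. Cers5, a ceramide synthase upstream of glycolipids, was lower by 1.29 (limma, adjusted p = 0.000288) and 1.45 (limma, adjusted p = 4.7e-05). The ganglioside activator gene gm2a was higher by 1.2 (limma, adjusted p = 0.000581) and 1.01 (limma, adjusted p = 0.000949), and sptlc2a, of the first step of sphingolipid synthesis and within background in hlk, by at least 0.38 (limma, adjusted p = 0.000965) and 0.31 (limma, adjusted p = 0.000723).

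Of the 21 phosphoprotein, R3H and protein kinase A genes measured beside arpp21, 3 were called lower in hMYC-1 and 4 in hMYC-2, and none higher in either. They had a median difference of -0.25 for hMYC-1 and -0.18 for hMYC-2. Of the R3H genes measured, r3hcc1l differed by -0.27 in hMYC-1 (limma, adjusted p = 0.254) and by -0.55 in hMYC-2 (limma, adjusted p = 0.0121). Its hMYC-2 call was lost without hlk replicate 1 (limma, adjusted p = 0.0606). R3hdm1 differed by -0.61 in hMYC-1 (limma, adjusted p = 0.00832) and by -0.46 in hMYC-2 (limma, adjusted p = 0.0209). With the replicate number as a block it passed in neither (limma, adjusted p = 0.0616 and 0.0996), and in hMYC-2 it was lost without hlk replicate 2 or 3 (limma, adjusted p = 0.0504 and 0.0784). Arpp19a, another small phosphoprotein of this kind, averaged 0.25 and 0.31 lower (limma, adjusted p = 0.18 and 0.0541).

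**Figure D4:**
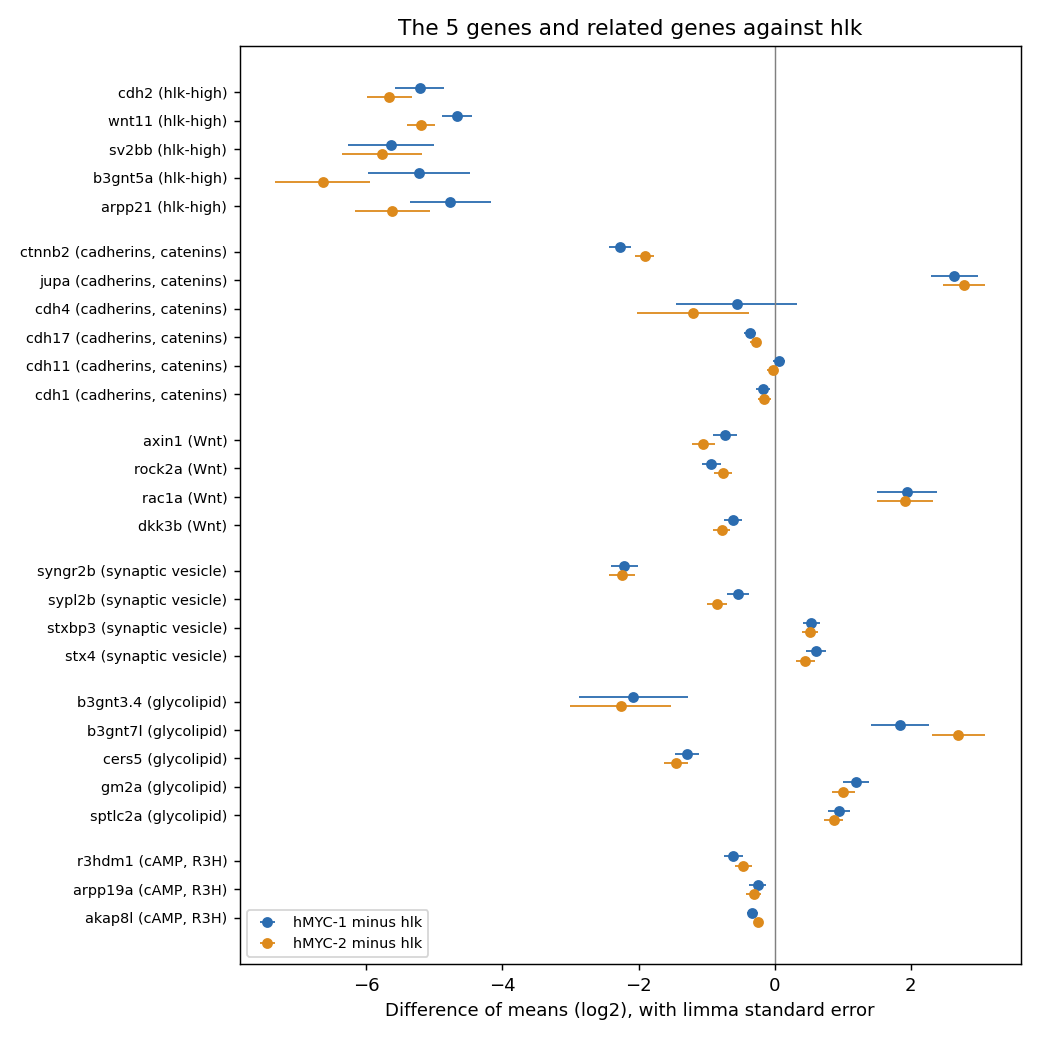
Difference from hlk (x axis, log2 of the measured signals, with limma's standard error as bars) for hMYC-1 and for hMYC-2, for the brighter probe set of the 5 genes (marked hlk-high, top) and for 22 genes related to them. The 5 genes, which were chosen for this difference, lie between -6.64 and -4.67, and the related genes between -2.27 and 2.78.

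The genes most like the mean of the 5 over the 13 arrays were ved, ets1, carmil2, sema4e and hs6st1a, with Pearson r of 0.998, 0.994, 0.993, 0.993 and 0.985 among 8788 genes. The points share 1 normalisation, and the hlk arrays lie apart from the rest in each of these genes. Ved, a homeobox gene of ventral cells in the embryo, read 5.60, 5.53, 6.83 and 6.25 in hMYC-1, between 5.30 and 5.55 in hMYC-2, and 9.41, 10.37 and 10.37 in hlk. Like arpp21 it was above background in hMYC-1 replicates 3 and 4 and in no hMYC-2 array. Hs6st1a, a heparan sulfate sulfotransferase, read 3.98 to 4.27 in hMYC-1, 3.74 to 4.10 in hMYC-2, and 7.40, 7.83 and 7.76 in hlk.

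The 5 genes lie on 5 chromosomes. In the gene order of assembly GRCz12tu, wnt11 is flanked by uvrag, whose level differed from hlk by -0.01 in hMYC-1 and 0.01 in hMYC-2, and by si:dkey-250d21.1, which was lower by 0.73 (limma, adjusted p = 0.00628) and 0.74 (limma, adjusted p = 0.00277). Arpp21 is flanked by zftraf1, with differences of -0.03 and -0.02, and by pdcd6ip, with -0.50 in each (limma, adjusted p = 0.0505 and 0.03). Pdcd6ip lost its call in hMYC-2 without hlk replicate 2 or 3 (limma, adjusted p = 0.147 and 0.101) and without hMYC-2 replicate 4 or 6 (limma, adjusted p = 0.0571 and 0.0515), and passed in hMYC-1 without hlk replicate 1 (limma, adjusted p = 0.00161). The nearest measured genes to cdh2, 4 places away on each side, were nfkbiaa, with -1.45 in hMYC-1 (limma, adjusted p = 0.0044) and -0.64 in hMYC-2 (limma, adjusted p = 0.114, and 0.044 without hMYC-1 replicate 4), and psma8, with -0.35 in hMYC-1 (limma, adjusted p = 0.0359) and -0.45 in hMYC-2 (limma, adjusted p = 0.00485). The psma8 call in hMYC-1 was lost without any hMYC-1 array, without hMYC-2 replicate 2 and without hlk replicate 2 or 3 (limma, adjusted p = 0.0506 to 0.138). For sv2bb and b3gnt5a the nearest measured genes were enc2 and ect2, neither of which was called. No measured neighbour named here differed from hlk by more than 1.45.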

How the data were processed

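GFP+ ALL cells of 13 adult zebrafish, 1 fish per array, were profiled on the Affymetrix Zebrafish Genome Array from 100 ng of total RNA. The deposited values are on a log2 scale, 1 per probe set, and come from the authors' justRMA normalisation of all arrays together. Scanner files were not used here. Groups and replicate numbers came from the sample titles, and p-values measure the spread between fish.

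The 115 control probe sets were left out. Symbols came from the array annotation and were updated by gene ID (10711 of 10795 with 1 symbol matched, 1 changed), leaving 135 probe sets with several symbols and 4572 with none unnamed. A gene was shown by its probe set with the highest mean. limma 3.58.1 (R 4.3.3; lmFit and eBayes) was fitted over all 15502 probe sets and 13 arrays with a mean per group, Benjamini-Hochberg adjustment and a threshold of 0.05, and was tested on simulated data.

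The 5 genes and the lists were chosen with earlier results of these data known. Related and lineage genes were named by the smallest adjusted p, up to 3 lower and 3 higher per list and contrast, together with paralogs, nearest measured neighbours and genes of highest Pearson r. trac, rag1, rag2, ikzf1, cxcl12b, ctnnb1 and rspo1 were named after their values were seen.

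Same-numbered arrays of hMYC-2 and hlk deviated together (r = 0.323, 0.23 and 0.242), with no label saying why. Calls between them numbered 3822 without and 2395 with the replicate number as a block. Promoter and protein sequences were not used here.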

Additional observations from a re-analysis of the deposited data

Results flagged for a closer look

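None of the 7 probe sets of the 5 genes had an array far from the rest of its hMYC group by Dixon's test. Among 126 sets of 4 or 6 arrays examined, which included the related, lineage and neighbouring genes, 6 had such an array, and chance alone marks about 1 in 20. In hMYC-1, replicate 3 was the array that stood apart for snap29 (lowest, 4.29), syt11a (highest, 4.89) and enc2 (lowest, 5.14). In hMYC-2, replicate 5 was lowest for tox at 5.39, and replicate 1 was lowest for sptbn1 at 10.41 and for psma8 at 9.71.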

How the results depend on the processing

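The differences of the 7 probe sets from hlk kept their direction and moved by less than 1 SD under all 238 alternatives run. The SD was the larger of those of the 2 groups compared. Leaving out 1 array cannot move a group mean by 1 SD of its group, so those runs could only come out this way. The direction is the one for which the genes were chosen. For hMYC-1, the ranges without 1 array each included -6.0 to -4.77 for b3gnt5a, -6.76 to -4.79 for sv2bb, and -2.19 to -0.93 for the dimmer cdh2 probe set. With the background limit at the 95th percentile of the tag controls (5.27), 2 hMYC-1 arrays in place of 1 were above it for b3gnt5a, and 1 in place of 0 for cdh2.

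Probe sets called between hMYC-1 and hlk (2909) numbered 983 by the shrinkage t of the methods and 1879 with the 2 groups fitted alone. Between hMYC-2 and hlk they numbered 2395 with the replicate block, in place of 3822. Between hMYC-1 and hMYC-2 (83) they numbered 153 with array weights, 55 with the housekeeping shift, 31 by the shrinkage t, 25 with the replicate block, and 40 (without hMYC-1 replicate 3) to 99 (without hMYC-1 replicate 1) with an array left out, with 49 and 51 without hMYC-2 replicates 2 and 3.

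Related genes lower in hMYC-1 (14) numbered 5 with the housekeeping shift, 4 by the shrinkage t, 8 with the replicate block and 9 with the 2 groups alone, and those higher (13) numbered 4 by the shrinkage t and 7 with the 2 groups alone. Those lower in hMYC-2 (22) numbered 13 after a filter on low values, 9 with the housekeeping shift, 9 by the shrinkage t and 11 with the block, and those higher (16) numbered 10 after the filter and 10 (without hlk replicate 2) to 18 (without hMYC-2 replicate 1). The cause was not tested, except that the filter left fewer genes to call.

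Of 73 calls of single genes, 42 kept theirs by the shrinkage t, 53 with the housekeeping shift, 51 with the replicate block and 57 to 71 with an array left out, and none changed direction. Same-numbered arrays of hMYC-1 and hlk (r = -0.15 to 0.102) and of hMYC-1 and hMYC-2 (r = -0.321 to 0.17) did not deviate together. Only 3 hlk arrays were measured, which limits the precision, and hMYC levels of cdh2, wnt11 and sv2bb are known only as under the background limit.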

Other observations

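The genes most like arpp21 over the 10 hMYC arrays, among 4850 genes above background in at least 2 of them, were nckap5l (Pearson r = 0.969), lgals2a (0.956) and desi2 (0.954). Nckap5l read 4.87, 5.48, 8.01 and 7.17 in hMYC-1, between 4.69 and 5.63 in hMYC-2, and 9.93, 9.53 and 9.60 in hlk. Desi2 was above background on all arrays and read 6.88, 6.80, 8.41 and 7.75 in hMYC-1, between 6.75 and 7.09 in hMYC-2, and 11.34, 10.52 and 10.60 in hlk.

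Lgals2a, a galectin that binds galactose-containing sugars, differed from both. It read 3.61, 3.75, 7.13 and 5.93 in hMYC-1, between 3.41 and 3.66 in hMYC-2, and 3.89, 3.75 and 4.01 in hlk. Only hMYC-1 replicates 3 and 4 were above background, the same arrays as for the brighter arpp21 probe set, a match that follows from the choice by r. The hlk arrays, where arpp21 was highest and which the choice did not use, were within background.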
